A study of Mus musculus with 16 samples.

Results

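The transcripts examined here come from 9 genes that control eIF2, the factor that brings the initiator tRNA to the ribosome. They are Eif2s1 and Eif2s2, which encode the alpha and beta subunits of eIF2; Eif2ak1, Eif2ak2, Eif2ak3 and Eif2ak4, which encode the kinases HRI, PKR, PERK and GCN2; Dnajc3, which encodes the PERK and PKR inhibitor p58IPK; and Ppp1r15a and Ppp1r15b, which encode the phosphatase regulators GADD34 and CReP. They were chosen by name with earlier results of these data known, as were the other gene lists used below. All 9 were found among 29806 gene rows, and all 9 were among the 14179 genes that passed the filter on low counts.

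When one of the kinases phosphorylates the alpha subunit, eIF2 binds its exchange factor eIF2B tightly, general initiation falls, and a few messages such as that of the transcription factor ATF4 are translated more. HRI answers to haem shortage and mitochondrial stress, PKR to double-stranded RNA, PERK to unfolded protein in the endoplasmic reticulum and GCN2 to uncharged tRNA. GADD34, which is itself induced by stress, and CReP, which is made constitutively, each bring protein phosphatase 1 to the alpha subunit and reverse the mark. Phosphorylation is not seen by RNA sequencing, so the values below are transcript levels only.

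RNA was sequenced from 2 cell populations of mouse bone marrow. HSC, the haematopoietic stem cells, head the blood lineages, and MPP3 are myeloid-biased multipotent progenitors, here the fraction negative for Fcgr. Control mice were labelled wild type and mutant mice Jak2V617F, an activating change in the cytokine receptor kinase JAK2; each of the 4 groups (control and mutant of each cell type) had 4 libraries, and the replicate number was the batch label. The sources used here do not give the promoter or Cre behind the allele, the ages or any pooling of animals, and gene counts carry no base change with which to check the genotype. Nothing in the labels ties a replicate to an animal of its own. The p-values therefore measure only the spread between these samples, an unknown part of which may be technical.

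The smallest library held 33.4 and the largest 41.5 times 1000000 estimated counts. The cell labels were checked against markers. All 8 HSC markers fell and all 7 MPP3 markers rose in control MPP3 against control HSC by edgeR's quasi-likelihood test. In mutant MPP3 against mutant HSC, 5 of the 8 HSC markers fell and all 7 MPP3 markers rose. All 8 HSC markers had a negative log2 fold change there. Mutant HSC had less of the HSC markers, with summed levels of 429 to 495 CPM (counts per 1000000 with TMM-scaled library sizes) against 674 to 832 CPM in control HSC, and 4 of the 8 genes fell. Batch 1 stood apart in immediate early genes, a group that cells switch on within minutes of stimulation, and its values are given beside Ppp1r15a. Of 7 T and NK cell markers, 4 were at 0 in control HSC, 3 in mutant HSC, 1 in control MPP3 and 0 in mutant MPP3, while mean Lck was 20.0 CPM in HSC and 63.5 CPM in MPP3 of controls. The neutrophil markers summed to 2.01 to 277.5 CPM over the 16 libraries. Levels are CPM in batch order 1 to 4 unless said otherwise, means are ± SD with n = 4 libraries, and log2 fold changes are ± SE with adjusted p from edgeR's quasi-likelihood test and Benjamini-Hochberg adjustment over all genes tested.

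**Figure D1:**
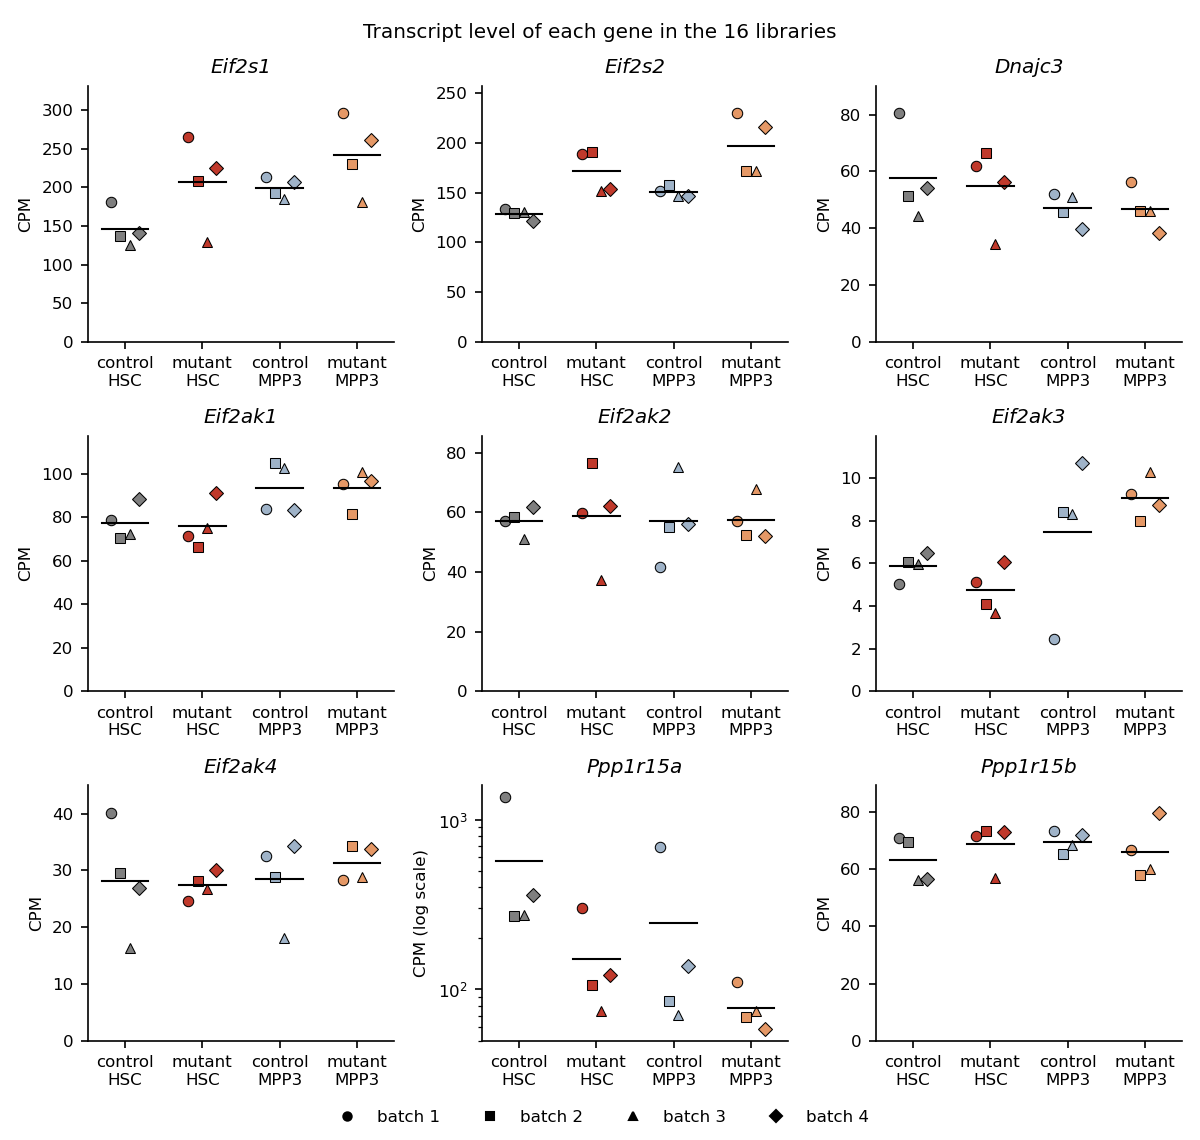
CPM of each of the 9 genes (y axis from 0, except a log axis for Ppp1r15a) in the 4 groups, with 1 point per library, the marker shape giving the batch and the bar the group mean. Ppp1r15a in batch 1 lies highest in every group, and the Eif2s2 levels of mutant HSC lie above those of control HSC.

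The genes of the 2 eIF2 subunits had higher mean levels in the mutant in both cell types. By edgeR without a batch term, Eif2s2 in HSC was the 1 member of 9 called. With the replicate number as a block, 3 members were called in mutant against control HSC, beside 9.83% of all genes. Eif2s2 stood at 134, 129.7, 131 and 122 CPM in control HSC and at 189, 191, 152 and 154 CPM in mutant HSC. Every mutant library lay above every control library. The log2 fold change was 0.41 ± 0.11 (edgeR adjusted p = 0.027), a ratio of 1.33, and Eif2s2 was higher in 4 of 4 batches, as were 14.0% of all genes tested. In this comparison 7.3% of all genes tested were called, 4.56% of all genes tested were called as higher in the mutant, and 7.26% of all were higher without overlap. In bulk samples, fewer cells of a type and less RNA per cell cannot be told apart, and other marker levels moved with this result beside the lower HSC markers. Megakaryocyte markers summed to 995.9 to 1487.4 CPM in mutant HSC against 771.0 to 1047.3 CPM in control HSC, and 2 of 7 rose, Pf4 (1.08, edgeR adjusted p = 0.0275) and Itga2b (0.58, edgeR adjusted p = 0.0485). Erythroid markers summed to 3137.6 to 3859.3 CPM against 3847.7 to 4737.9 CPM with 0 of 15 called by edgeR (3 at an unadjusted p under 0.05, and 2 by DESeq2). Most of that sum was Car2, with means of 4018.1 CPM in control and 3153.0 CPM in mutant HSC. Of the 15 log2 fold changes, 12 were negative and 3 positive. Gata1 was higher, at 76.4 to 104.4 CPM in mutant against 31.0 to 63.1 CPM in control HSC. B cell markers summed to 53.4 to 66.9 CPM against 72.5 to 94.1 CPM with 1 called, Cd79b (-0.42, edgeR adjusted p = 0.0414). Most of that sum was Cd79b, as 5 of the 6 genes had means under 1 CPM in both groups. Of the 7 MPP3 markers, 1 rose and 1 fell in mutant HSC. Mean Cd48 rose from 2.5 to 6.74 CPM (1.43, edgeR adjusted p = 0.000763), and Prtn3 fell (-0.68, edgeR adjusted p = 0.0193). The part of these markers in the Eif2s2 result was not tested.

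The Eif2s2 call was close to the threshold. It was lost without control HSC replicate 2 (edgeR adjusted p = 0.0579), 3 (0.0571) or 4 (0.078), without mutant HSC replicate 1 (0.0885) or 2 (0.0664), and without batch 1 in every group (0.0968). Over all alternatives the log2 fold change of Eif2s2 stayed between 0.36 and 0.50, with adjusted p from 0.00454 to 0.134.

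In MPP3, Eif2s2 stood at 152, 158, 146 and 146 CPM in controls and at 230, 172, 172 and 216 CPM in mutants, again with no overlap. The log2 fold change was 0.39 ± 0.11, almost as in HSC, but edgeR adjusted p was 0.136 and it was not called. In MPP3, 0.0635% of all genes tested were called and 7.12% did not overlap, 3.65% as higher. DESeq2 gave Eif2s2 an adjusted p of 0.0342, where it called 2.72% of genes, and over all alternatives adjusted p ran from 0.0342 to 0.458. For Eif2s2 the mutant effect in MPP3 minus that in HSC was -0.02 ± 0.15 (95% interval -0.34 to 0.30, edgeR adjusted p = 1.0). Marker sums of other cell types moved both ways in MPP3. Mean sums were higher in mutants for macrophage and dendritic cell markers (267.7 against 175.2 CPM) and megakaryocyte markers (242.2 against 217.9 CPM), with overlapping libraries. For neutrophil markers the mean was lower (55.6 against 127.9 CPM), as it was for erythroid, B cell, and T and NK cell markers. Erythroid markers summed to 1439.4 to 2754.4 CPM against 2705.2 to 3790.7 CPM, B cell markers to 70.0 to 111.4 against 108.1 to 189.9 CPM, and T and NK cell markers to 41.1 to 52.3 against 52.2 to 89.4 CPM. By edgeR 0 of 15, 0 of 5 and 0 of 5 tested genes of these lists were called, while 6, 3 and 2 passed at an unadjusted p under 0.05 and DESeq2 called 2, 0 and 0. Their part in the MPP3 values was not tested. Eif2s2 was 1 of 212 genes, 1.5% of those tested, that lay above control without overlap in both cell types.

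Eif2s1, the alpha subunit that carries the regulatory serine, stood at 181, 137, 125 and 140.4 CPM in control HSC and at 265, 209, 129 and 225 CPM in mutant HSC. Batch 1 was highest and batch 3 lowest in both groups, and mutant batch 3 lay among the controls. Its log2 fold change was 0.50 ± 0.18 (edgeR adjusted p = 0.112), not called. With the replicate block it was 0.48 ± 0.11 and called (edgeR adjusted p = 0.0156), as it was without mutant HSC replicate 3 (0.71, edgeR adjusted p = 0.00692). Over all alternatives adjusted p ran from 0.00692 to 0.727. The immediate early gene Fos, which was high in batch 1, moved with both subunit genes in deviations from group means over the 16 libraries, with r = 0.76 for Eif2s1 and 0.53 for Eif2s2, and its part was not tested. With the block, 9.83% of all genes were called in this comparison.

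In control MPP3, Eif2s1 stood at 214, 193, 185 and 208 CPM, above every control HSC library. The log2 fold change of control MPP3 against control HSC was 0.45 ± 0.18 (edgeR adjusted p = 0.119) and was not called, where 13.6% of all genes were called and 19.5% did not overlap, 9.25% as higher. With the replicate block Eif2s1 rose by 0.47 ± 0.11 (edgeR adjusted p = 0.0109), where 15.8% of genes were called, and the range over all alternatives was 0.0109 to 0.260. Mutant MPP3 had 296, 230.3, 181 and 261 CPM of Eif2s1, and the mutant difference in MPP3 was 0.28 ± 0.18 (edgeR adjusted p = 0.55). Batch 3 was lowest in all 4 groups for this gene.

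Per length, the 2 subunit genes were similar. In TPM, a level scaled by effective length, Eif2s1 had 69.7 ± 9.29 and Eif2s2 84.9 ± 4.63 in control HSC, and 101 ± 29.7 and 113 ± 14.4 TPM in mutant HSC. The ranges of these 2 genes overlapped in each of the 4 groups. The mean TPM ratio of Eif2s1 to Eif2s2 ran from 0.824 to 0.961 over the groups.

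The gamma subunit comes from a pair of genes outside the 9, Eif2s3x on the X and Eif2s3y on the Y chromosome. Eif2s3y had no counts in batches 1 and 4 except for 22 counts (0.637 CPM) in control MPP3 batch 1, and 27.1 to 49.4 CPM in batches 2 and 3. A count of 0 allows up to 3 counts, which is 0.0711 to 0.0901 CPM in these libraries; this limit covers counting error only. Eif2s3x was at 221 to 374 CPM in batches 1 and 4 and at 145 to 226 CPM in batches 2 and 3. Summed, the gamma genes had means of 222 CPM in control HSC, 247 in mutant HSC, 249.8 in control MPP3 and 310.2 in mutant MPP3. Every group held both kinds of batch, so the spread within a group includes any difference between them. The kind of batch is balanced over the comparisons.

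**Figure D2:**
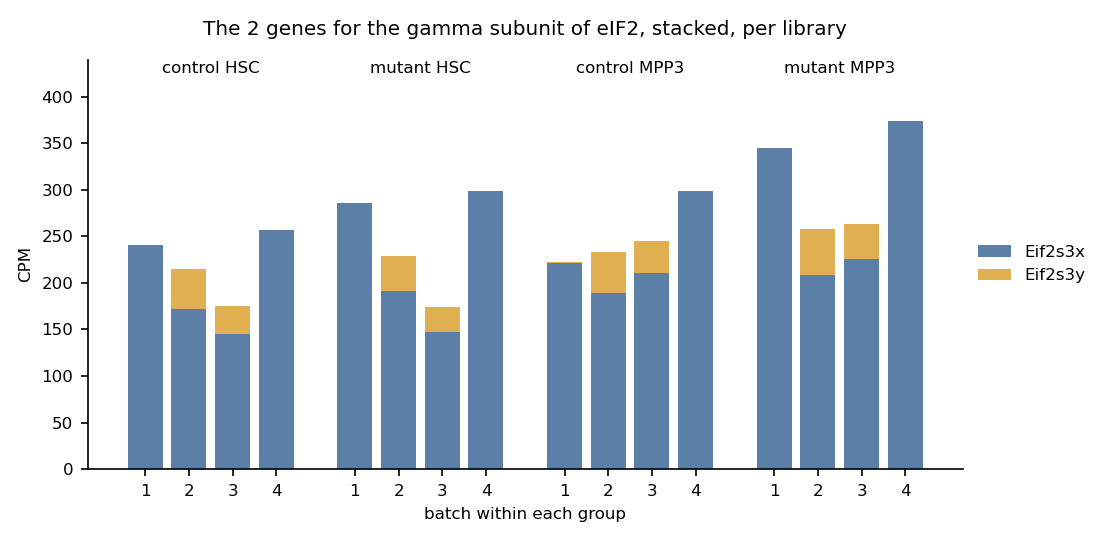
Stacked bars of Eif2s3x and Eif2s3y in CPM (y axis) for each of the 16 libraries, in batch order within each group (x axis). Eif2s3y is seen only in batches 2 and 3 at this scale, where it adds 27.1 to 49.4 CPM.

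None of the 4 kinase genes was called in any of the 5 comparisons by edgeR's quasi-likelihood test. Eif2ak1, the haem-regulated kinase, stood at 79.0, 70.7, 72.2 and 88.4 CPM in control HSC and at 71.6, 66.6, 75.3 and 91.2 CPM in mutant HSC. In MPP3 it had 83.8, 105, 103 and 83.3 CPM in controls and 95.4, 81.5, 101 and 96.9 CPM in mutants. The mutant differences were -0.03 ± 0.12 in HSC (95% interval -0.28 to 0.23) and near 0 in MPP3 (-0.26 to 0.26). MPP3 had the higher mean in both genotypes, by 0.27 ± 0.12 in controls (edgeR adjusted p = 0.161) and 0.30 ± 0.12 in mutants (edgeR adjusted p = 0.165), with overlapping groups.

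Eif2ak2, the double-stranded RNA kinase and an interferon-induced gene, had group means of 57.1 ± 4.51, 58.9 ± 16.3, 57.0 ± 13.8 and 57.4 ± 7.49 CPM, in the order HSC control, HSC mutant, MPP3 control, MPP3 mutant. The 4 means lay within 2 CPM of each other, while single libraries ran from 37.2 CPM (mutant HSC batch 3) to 76.6 CPM (mutant HSC batch 2). The mutant differences were 0.04 ± 0.19 in HSC and 0.01 ± 0.19 in MPP3.

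Eif2ak3, the endoplasmic reticulum kinase PERK, was the least abundant member, with as few as 84 counts in a library. It stood at 5.02, 6.06, 5.96 and 6.47 CPM in control HSC and at 5.12, 4.10, 3.65 and 6.06 CPM in mutant HSC. In MPP3 it had 2.43, 8.41, 8.30 and 10.7 CPM in controls and 9.25, 7.98, 10.3 and 8.71 CPM in mutants. All 4 mutant MPP3 libraries lay above all 4 mutant HSC libraries, with a log2 fold change of 0.94 ± 0.34 (95% interval 0.22 to 1.66, edgeR adjusted p = 0.113). In that comparison 8.36% of all genes were called and 6.14% lay higher without overlap, and Eif2ak3 was not called under any alternative. In controls the same comparison gave 0.34 ± 0.34 (edgeR adjusted p = 0.591), with batch 1 the 1 batch in which MPP3 lay lower.

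Eif2ak4, the kinase that senses uncharged tRNA, had group means of 28.2 ± 9.81, 27.4 ± 2.29, 28.5 ± 7.28 and 31.3 ± 3.19 CPM in the same order of groups. Its lowest libraries were batch 3 of control HSC at 16.3 CPM and of control MPP3 at 18.1 CPM, and its highest was control HSC batch 1 at 40.2 CPM. The mutant differences were -0.04 ± 0.23 in HSC and 0.14 ± 0.23 in MPP3.

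Per length, Eif2ak1 and Eif2ak2 made up most of the kinase transcript in every group. Eif2ak1 had 23.5 ± 2.64 and Eif2ak2 21.5 ± 3.30 TPM in control HSC, and these 2 genes overlapped in each of the 4 groups. Eif2ak4 followed at 6.80 ± 2.27 TPM and Eif2ak3 at 1.78 ± 0.272 TPM, and in each group Eif2ak4 lay below Eif2ak2, and Eif2ak3 below Eif2ak4, without overlap. As a share of the summed kinase TPM, the group means ran from 42.2 to 47.3% for Eif2ak1, 34.5 to 42.7% for Eif2ak2, 11.8 to 13.6% for Eif2ak4 and 2.62 to 4.66% for Eif2ak3. Every mutant MPP3 library had a larger Eif2ak3 share (4.46 to 4.78%) than every mutant HSC library (2.00 to 3.01%). In controls the shares overlapped, at 1.48, 3.82, 3.81 and 5.73% in MPP3 and 2.62, 3.32, 4.01 and 3.43% in HSC. The summed kinase TPM was 53.6 ± 7.06, 54.1 ± 10.5, 58.2 ± 7.75 and 55.3 ± 5.97 in the same order of groups.

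**Figure D3:**
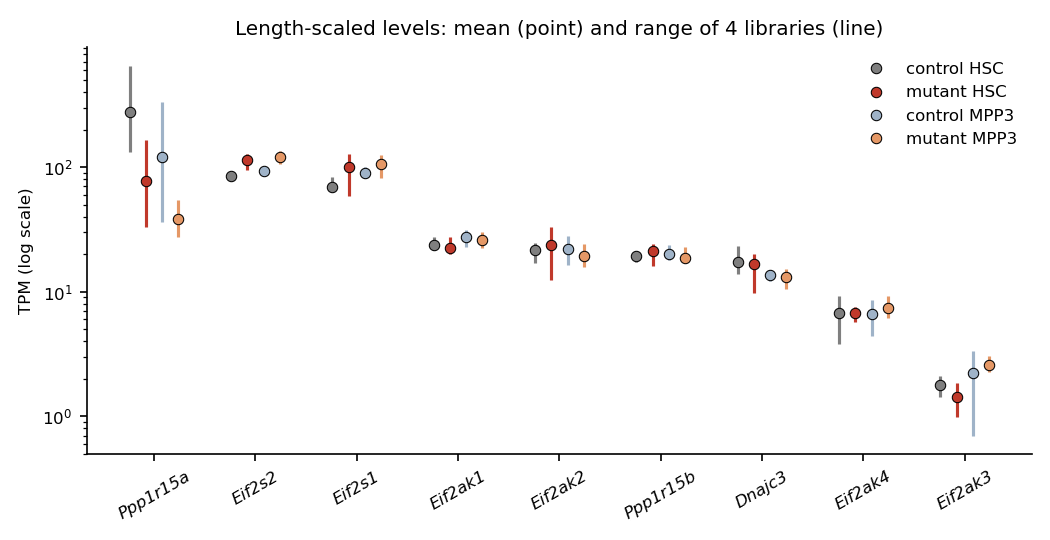
TPM of the 9 genes on a log axis, with the point at the mean and the line from the lowest to the highest of 4 libraries, for the 4 groups. Ppp1r15a spans the widest range, from 27.5 to 653 TPM, and Eif2ak3 lies lowest, with group means of 1.42 to 2.58 TPM.

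Dnajc3, the inhibitor of PERK and PKR, stood at 80.4, 51.3, 44.2 and 54.2 CPM in control HSC and at 61.8, 66.4, 34.3 and 56.3 CPM in mutant HSC. In MPP3 it had 51.9, 45.5, 50.8 and 39.6 CPM in controls and 56.1, 46.1, 46.1 and 38.1 CPM in mutants. All 4 groups overlapped, and the mutant differences were -0.07 ± 0.20 in HSC and -0.01 ± 0.20 in MPP3. Dnajc3 is known as a target of the unfolded protein response, and its promoter is shown for the element through which that response acts. The motif shown is ERSE (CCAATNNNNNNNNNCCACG, either strand), and capitals mark the match, which lies 105 to 87 bases before the RefSeq start (chr14:118937812-118937931, GRCm38.p6, plus strand).
Dnajc3: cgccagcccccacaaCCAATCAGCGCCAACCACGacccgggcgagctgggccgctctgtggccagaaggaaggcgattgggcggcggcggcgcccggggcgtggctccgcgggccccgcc
This motif was found in 0.113% of 32851 RefSeq promoter windows of 250 bases before the start, and in 7 of 17 endoplasmic reticulum chaperone and unfolded protein response genes that had a window. Those 7 were Hspa5, Hsp90b1, Calr, Canx, Pdia6, Creld2 and Syvn1. A CCAAT box (CCAAT, either strand) overlaps the match, and 33.8% of windows hold one. ERSE was picked from a wider search of the same windows. That search also covered the E-box, cyclic AMP response element, interferon-stimulated response element, GAS, CARE and CArG box. A match describes the letters only.

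Ppp1r15a, the stress-induced phosphatase regulator, varied most among the 9 genes. It stood at 1361, 270.3, 275 and 362 CPM in control HSC and at 302, 106, 75.1 and 122 CPM in mutant HSC. In MPP3 it had 693, 85.5, 70.7 and 138 CPM in controls and 111, 69.1, 74.3 and 58.3 CPM in mutants. Batch 1 was highest in every group, and in HSC every mutant library lay below the control library of its own batch. The groups overlapped, because mutant HSC batch 1 lay above control HSC batches 2 and 3.

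Mutant HSC had less Ppp1r15a in 4 of 4 batches, with log2 ratios of -2.17, -1.35, -1.87 and -1.57, a pattern that 16.6% of all genes tested had in this comparison. Without a batch term the log2 fold change was -1.91 ± 0.78 (edgeR adjusted p = 0.171) and was not called. It was -0.96 without control HSC replicate 1 and -2.49 without mutant HSC replicate 1, the 2 ends of the range with 1 library left out. With the replicate block it fell by 1.74 ± 0.31 in log2 units (edgeR adjusted p = 0.0038). Leaving batch 1 out of every group was chosen after seeing the data, here and below. Without batch 1 Ppp1r15a fell by 1.55 ± 0.24 (edgeR adjusted p = 0.00817), where 3.22% of genes were called. The range over all alternatives was 0.0038 to 0.490, and DESeq2 gave no adjusted p for this gene.

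Control MPP3 also had less Ppp1r15a than control HSC in 4 of 4 batches, with log2 ratios of -0.97, -1.66, -1.96 and -1.39; 19.2% of all genes were lower in every batch. The log2 fold change was -1.20 ± 0.77 (edgeR adjusted p = 0.368). With the replicate block it fell by 1.42 ± 0.31 (edgeR adjusted p = 0.00645), without batch 1 by 1.63 ± 0.24 (edgeR adjusted p = 0.00117), where 8.92% of genes were called, and without control MPP3 replicate 1 by 2.54 (edgeR adjusted p = 0.0207). Without control HSC replicate 1 the log2 fold change was -0.30, the smallest with 1 library left out. The range over all alternatives was 0.00117 to 0.857. These 2 comparisons share the control HSC libraries.

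In MPP3 the mutant difference in Ppp1r15a was -1.66 ± 0.78 (edgeR adjusted p = 0.371), with log2 ratios of -2.64, -0.31, 0.07 and -1.24 by batch, and it was not called under any alternative. Without control MPP3 replicate 1 it was -0.31. Mutant MPP3 against mutant HSC gave -0.95 ± 0.77 (edgeR adjusted p = 0.578), and -0.37 without mutant HSC replicate 1. The mutant effect in MPP3 minus that in HSC was 0.25 ± 1.07 (95% interval -2.07 to 2.56), too wide to tell the effects in the 2 cell types apart.

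Immediate early genes moved with Ppp1r15a. Their summed level over 22 genes was 10388 CPM in batch 1 of control HSC against 1445 to 2187 CPM in the other batches, and 2086 against 532 to 866 CPM in mutant HSC. In control MPP3 it was 6576 against 716 to 1240 CPM, and in mutant MPP3 1384 against 464 to 864 CPM. Of 20 tested, 14 were highest in batch 1 in all 4 groups. In mutant HSC all 20 had a negative log2 fold change, with a median of -1.74 against -0.06 over all genes; 2 fell without the block, beside 2.74% of all genes, and 13 fell with it, where 9.83% of all genes were called in either direction. In deviations from group means over the 16 libraries, which share batches, Ppp1r15a had r = 0.87 with Fos, 0.79 with Jun and 0.81 with Egr1. Among the other members Dnajc3 had r = 0.72 with Fos and Eif2s1 r = 0.60 with Egr1, and Eif2ak3 had r = -0.62 with Egr1. The part of this group in the Ppp1r15a result was not tested.

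**Figure D4:**
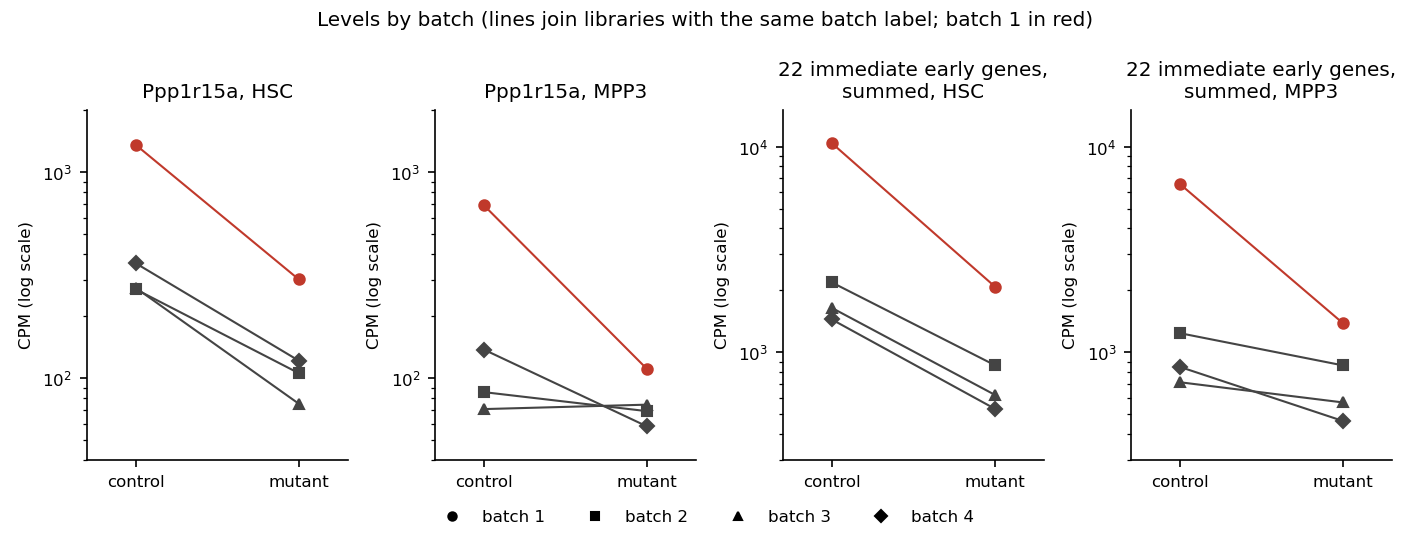
CPM of Ppp1r15a (left pair) and of 22 immediate early genes summed (right pair) on log axes, in control and mutant HSC and MPP3, with lines joining libraries of the same batch and batch 1 in red. In HSC all 4 lines fall from control to mutant for Ppp1r15a, and batch 1 lies highest throughout.

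The Ppp1r15a promoter is shown for a cyclic AMP response element (TGACGTCA, either strand), a site bound by the CREB and ATF family, marked in capitals. It lies 12 to 5 bases before the RefSeq start (chr7:45526269-45526388, GRCm38.p6, minus strand, printed in the direction of the gene).
Ppp1r15a: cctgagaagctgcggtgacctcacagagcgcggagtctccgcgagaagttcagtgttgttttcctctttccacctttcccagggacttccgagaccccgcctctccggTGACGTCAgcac
The same letters were found in 1.55% of the RefSeq windows, and among 19 immediate early genes with a window in 2, Dusp1 and Btg2. Among the 8 members with a window, Ppp1r15a was the 1 gene with this element and Dnajc3 the 1 gene with ERSE.

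Ppp1r15b, the constitutive phosphatase regulator, stood at 70.8, 69.6, 56.0 and 56.6 CPM in control HSC and at 71.6, 73.3, 56.7 and 73.0 CPM in mutant HSC. In MPP3 it had 73.1, 65.1, 68.4 and 71.9 CPM in controls and 66.7, 58.0, 60.1 and 79.7 CPM in mutants. All groups overlapped, and the mutant differences in HSC and MPP3 were 0.12 ± 0.13 and -0.07 ± 0.13. Per length, the ratio of Ppp1r15a to Ppp1r15b TPM was 34.6, 6.27, 7.68 and 9.86 in control HSC and 7.12, 2.42, 2.07 and 2.54 in mutant HSC. In MPP3 it was 16.5, 2.27, 1.94 and 3.06 in controls and 2.97, 1.90, 2.22 and 1.21 in mutants, so Ppp1r15a had the higher TPM in all 16 libraries.

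**Figure D5:**
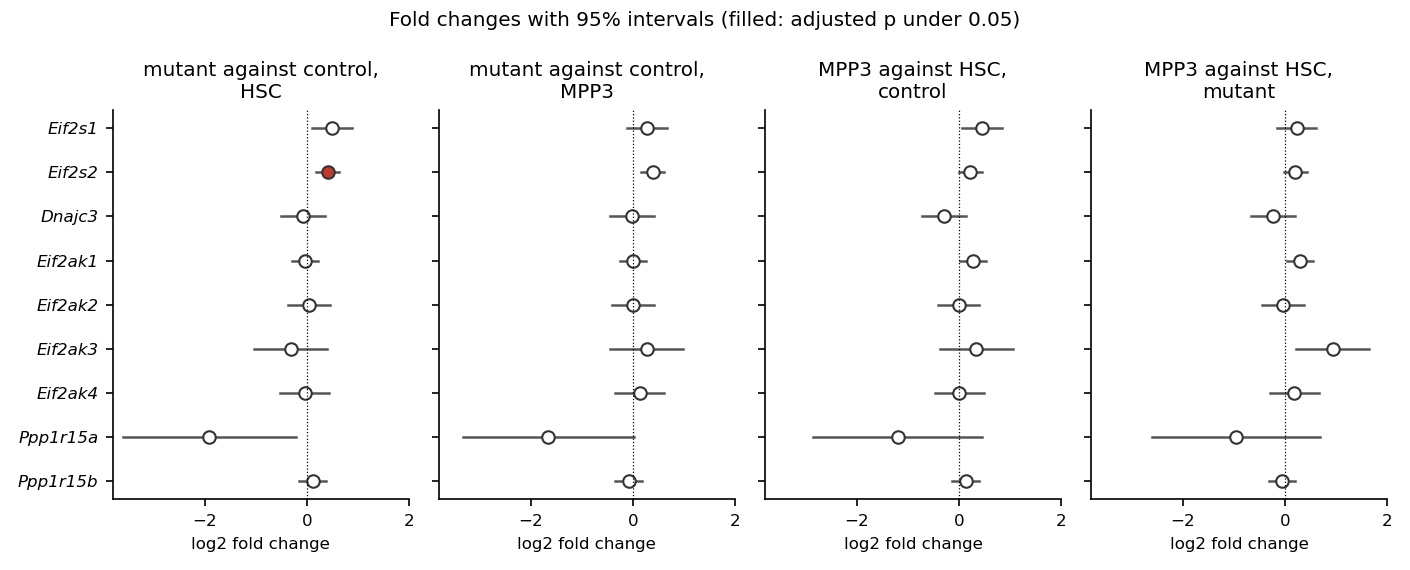
Log2 fold changes (x axis) of the 9 genes in 4 comparisons with their 95% intervals, from the model without a batch term; a filled point marks an adjusted p under 0.05. The single filled point is Eif2s2 in mutant against control HSC, at 0.41, and the intervals of Ppp1r15a are the widest.

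By count, edgeR's quasi-likelihood test called 1 of 9 members in mutant against control HSC and 0 in each of the other comparisons; 0.0423% of all genes were called for the difference of effects. At an unadjusted p under 0.05 there were 3 members in HSC, where 21.7% of all genes passed, 1 in MPP3 (13.8%), 2 in MPP3 against HSC in controls (26.5%), 2 in mutants (20.4%) and 0 for the difference (6.93%). DESeq2 called 2, 1, 0, 0 and 0 members in the same order of comparisons, beside 11.8%, 2.72%, 17.2%, 11.5% and 0.55% of all genes. The limma-voom counts were 1, 0, 0, 0 and 0, beside 8.96%, 0.0423%, 15.4%, 8.5% and 0.0353%. With the replicate block edgeR called 3, 0, 2, 0 and 0, beside 9.83%, 0.578%, 15.8%, 9.59% and 0.00705%. The median log2 fold change of the 9 genes was -0.03 in mutant against control HSC, beside -0.06 over all genes.

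The genes whose deviations from group means were most like those of each member, over 16 libraries and 9706 candidate genes, differed from member to member. Ppp1r15a was most like Klf6 (r = 0.95) and Btg1 (0.929), Eif2s1 most like Ssb (0.937) and Rsl1d1 (0.929), and Eif2s2 most like Nup37 (0.875) and Rheb (0.866). Eif2ak3 was most like Usp12 (0.932) and Ei24 (0.922), Eif2ak2 most like Cmah (0.877) and Zfp367 (0.841), and Eif2ak4 most like Preb (0.839) and Marcksl1 (0.832). Dnajc3 was most like Smarcc1 (0.905) and Uso1 (0.896), Ppp1r15b most like Erap1 (0.837) and Lypla1 (0.835), and Eif2ak1 most like Snx24 (0.785) and AI987944 (0.77). Eif2s1 and Eif2s2 had r = 0.64 with each other. These values are the highest of many and share batches and depth.

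Among the partners of the members, 2 of 15 eIF2 partner genes rose in mutant HSC, against 4.56% of all genes. Cdc123, an assembly factor of eIF2, rose from 108 ± 7.18 to 162 ± 24.5 CPM (0.58 ± 0.12, edgeR adjusted p = 0.00705), and Eif1ax, an initiation factor of the scanning ribosome, rose by 0.43 ± 0.10 (edgeR adjusted p = 0.018). The 5 eIF2B subunit genes, whose product is what phosphorylated eIF2 blocks, had log2 fold changes of 0.08 to 0.37 in mutant HSC and none passed. In MPP3, Eif2b3 had 0.60 ± 0.14 (edgeR adjusted p = 0.0874), while the other eIF2B genes had log2 fold changes of -0.10 to 0.12. In control MPP3 against control HSC, 2 of the 15 rose, beside 6.67% of all genes. They were Bzw2 (0.36 ± 0.10, edgeR adjusted p = 0.0282) and Eif1ax (0.32 ± 0.10, edgeR adjusted p = 0.0481). When each library was left out in turn, Cdc123 stayed called in 8 of 8 cases and Eif1ax in mutant HSC in 6 of 8. For MPP3 against HSC, Bzw2 stayed called in 2 of 8 and Eif1ax in 0 of 8.

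Of 11 genes that regulate the kinases, 1 fell in mutant HSC, beside 2.74% of all genes. This was Impact, which competes with GCN2 for its activator GCN1, at 58.5, 84.5, 99.2 and 78.1 CPM in control HSC and 41.2, 47.7, 54.4 and 43.0 CPM in mutant HSC. The log2 fold change was -0.78 ± 0.18 (edgeR adjusted p = 0.0142). Impact was lower in 4 of 4 batches, as were 16.6% of all genes tested. Over all alternatives its adjusted p in HSC ran from 0.00119 to 0.201. Mutant MPP3 differed from control MPP3 in Impact by only -0.02 ± 0.18 in log2 units (edgeR adjusted p = 0.986). With 1 library left out, the Impact call in HSC held in 5 of 8 cases, with edgeR adjusted p of 0.00841 to 0.0561. Control MPP3 had 37.7, 34.7, 24.3 and 45.8 CPM of Impact, -1.17 ± 0.18 against control HSC (edgeR adjusted p = 0.000324). In the same comparison, where 6.91% of all genes fell and 6.67% rose, Tarbp2, a double-stranded RNA partner of PKR, fell by 0.52 ± 0.16 (edgeR adjusted p = 0.04). The HSP90 chaperone genes Hsp90aa1 and Hsp90ab1 rose there by 0.31 ± 0.10 and 0.27 ± 0.08 (edgeR adjusted p = 0.0416 and 0.0373). With 1 library left out, edgeR adjusted p reached 0.119 for Tarbp2, 0.157 for Hsp90aa1 and 0.108 for Hsp90ab1, and 0.00159 for Impact.

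Of the 3 catalytic subunit genes of protein phosphatase 1, which the regulators GADD34 and CReP bring to eIF2, 1 rose in mutant HSC, beside 4.56% of all genes. Ppp1ca stood at 589.7, 572, 639 and 627 CPM in control HSC and 843, 844, 795 and 916 CPM in mutant HSC, with no overlap (0.49 ± 0.07, edgeR adjusted p = 0.00104). In control MPP3 against control HSC, where 6.67% of all genes rose, Ppp1ca rose by 0.41 ± 0.07 (edgeR adjusted p = 0.00139) and Ppp1cc by 0.62 ± 0.12 (edgeR adjusted p = 0.00253). In mutants Ppp1cc rose by 0.54 ± 0.12 in MPP3 against HSC (edgeR adjusted p = 0.00927), where 3.69% of all genes rose and 4.68% fell. After leaving out any 1 library, the Ppp1ca calls had edgeR adjusted p of at most 0.0074, and that of Ppp1cc in mutants reached 0.0523.

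Of 18 tested genes known as outputs of the integrated stress response, 4 rose and 2 fell in mutant HSC, beside 4.56% and 2.74% of all genes. The 4 were the one-carbon and serine genes Mthfd2 (1.25 ± 0.16), Psat1 (0.86 ± 0.16) and Shmt2 (0.43 ± 0.12) and the alanyl-tRNA synthetase gene Aars (0.58 ± 0.11), with edgeR adjusted p of 0.000304, 0.00332, 0.0297 and 0.00327. The 2 were the pseudokinase gene Trib3 (-1.59 ± 0.29, edgeR adjusted p = 0.00362) and the stress gene Ddit4 (-1.44 ± 0.38, edgeR adjusted p = 0.0277). When single libraries were left out, Mthfd2, Psat1, Aars and Trib3 stayed called in 8 of 8 cases, Ddit4 in 3 of 8 and Shmt2 in 2 of 8. Atf4 itself stood at 107 ± 35.5 CPM in control HSC, beside 102 ± 13.1 CPM in the mutant (-0.08 ± 0.21, edgeR adjusted p = 0.894), and Ddit3, which encodes CHOP, at 21.6 ± 5.82 and 15.8 ± 4.14 CPM (-0.45 ± 0.27, edgeR adjusted p = 0.361). By edgeR without the block, 0 of the 18 were called in mutant against control MPP3, where 9 passed at an unadjusted p under 0.05 beside 13.8% of all genes. Those that passed went both ways, with Trib3 among the lower ones (-0.73 ± 0.29). Of the 18 log2 fold changes in MPP3, 9 were positive and 9 negative, with a median of -0.01 beside -0.02 over all genes. DESeq2 called 3 there, Aars (adjusted p = 0.00044), Mthfd2 (0.0135) and Psat1 (0.0259), beside 2.72% of all genes, and Aars was called with the replicate block (0.55, edgeR adjusted p = 0.0471).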

How the data were processed

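RNA from 16 sorted bone marrow libraries was measured. The authors' deposited Salmon gene tables hold estimated counts, not normalized, TPM, which Salmon scales by length and to a fixed library sum, and, per the file headers, effective gene lengths. Per the submitters' processing notes the tools were cutadapt 4.0, FastQC, HISAT2 and Salmon with GRCm38 (mm10); the sources used here do not give their roles, settings or transcript set. The 1910 rows naming single transcripts (0.697 to 0.796% of counts) were left out. Symbols came from GENCODE and promoter windows from RefSeq, which held 8 of the 9 genes. The low-input cDNA kit named in the labels does not mark strand, so reads from genes that overlap Eif2ak1 (2), Eif2ak2 (2), Eif2ak3 (1), Ppp1r15a (1) and Ppp1r15b (1) on the opposite strand cannot be told apart from theirs.

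Counts were rounded and tested with edgeR 4.0.16 (TMM, filterByExpr by group, robust glmQLFit, glmQLFTest) in R 4.3.3, with 1 coefficient per group over 16 libraries and Benjamini-Hochberg adjustment over 14179 genes; adjusted p under 0.05 was called, and the code was tested on simulated data. Log2 CPM used a prior count of 2. The 5 comparisons set mutant against control within each cell type, MPP3 against HSC within each genotype, and the mutant effects against each other. Alternatives were DESeq2 1.42.0, limma-voom 3.58.1, RLE size factors, a replicate block, no filter, effective-length offsets, the compared groups alone, each library left out, mutant HSC replicates 1 and 4 left out together and, chosen after seeing the data, batch 1 left out in every group. The labels give the replicate number as the batch, so it pairs libraries. Deviations of same-numbered libraries had r from -0.0321 to 0.164, and 17 of 24 matched best with their own number.

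The 9 genes and the 16 other lists were chosen with earlier results of these data known. Named were all 9, called genes of the eIF2 partner, kinase regulator, phosphatase and stress output lists, up to 4 called genes of other lists per comparison and the 2 genes most like each of the 9 with a mean of at least 5 CPM. Atf4, Ddit3, Eif2b3, Fos, Jun, Egr1, Lck, Car2, Gata1, Eif2s3x and Eif2s3y were named outside this rule, after their values were seen.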

Additional observations from a re-analysis of the deposited data

Results flagged for a closer look

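In each group of 4 libraries the highest and lowest values of the 9 genes were set against the gap to their nearest neighbour; chance marks about 1 in 20 of the 36 groups examined. Ppp1r15a in control HSC replicate 1 stood far above the other 3 libraries, at 1360.9 CPM. Ppp1r15a in control MPP3 replicate 1 likewise stood far above the others, at 692.5 CPM. Both libraries are from batch 1. Ppp1r15b in mutant HSC replicate 3 stood below the other 3 libraries, at 56.7 CPM.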

How the results depend on the processing

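Depth limits Eif2ak3 most, which had as few as 84 counts in a library. Mutant against control HSC called 1 member, but 3 with the replicate block, 2 with DESeq2, 0 with mutant HSC replicates 1 and 4 left out together, and 0 to 2 with 1 library left out. In MPP3 DESeq2 called 1 member. For MPP3 against HSC in controls, called members were 2 with the replicate block, 1 with the groups compared alone, 1 without batch 1 and 0 to 1 with 1 library left out. Over all genes, mutant against control HSC called 1035 (DESeq2 1668, mutant HSC replicates 1 and 4 left out 266, without batch 1 457, 1 library left out 605 to 1412). In MPP3 it called 9 (replicate block 82, DESeq2 386, no filter 1, effective-length offsets 16, groups alone 0, without batch 1 2, 1 library left out 1 to 209, the last without mutant MPP3 replicate 3). MPP3 against HSC called 1926 in controls (1267 without batch 1, 1396 to 1608 with 1 library left out) and 1186 in mutants (776 without mutant HSC replicates 1 and 4, 742 without batch 1, 917 to 1133 with 1 library left out). The difference of effects called 6 (replicate block 1, DESeq2 78, 0 without mutant HSC replicates 1 and 4, 0 without batch 1, 1 to 5 with 1 library left out). The replicate block changed no other call of a member than the 4 given in the report.

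The values that changed sign were log2 fold changes that were never called. In mutant against control HSC, Eif2ak1 was 0.007 without the filter, 0.0043 with the groups alone and 0.04 without batch 1; Eif2ak2 was -0.0059 without mutant HSC replicates 1 and 4; Eif2ak4 was 0.0091 with the replicate block, 0.03 with limma-voom and 0.25 without batch 1; and Dnajc3 was 0.10 without batch 1. In MPP3, Eif2ak1 was 0.0071 with limma-voom, Eif2ak2 -0.14 with length offsets and -0.10 without batch 1, and Eif2ak3 -0.0098 without batch 1. In control MPP3 against HSC, Eif2ak2 was 0.03 without the filter, 0.03 with length offsets and 0.12 without batch 1, and Eif2ak4 -0.03 with length offsets. In mutant MPP3 against HSC, Eif2ak2 was 0.00093 with limma-voom and 0.01 without mutant HSC replicates 1 and 4, which put Ppp1r15b at 0.03. For the difference, Eif2ak1 was -0.02 without the filter and -0.09 without batch 1, Eif2ak2 0.03 with limma-voom and 0.02 without mutant HSC replicates 1 and 4, Eif2s1 0.07 without those replicates, and Dnajc3 -0.15 without batch 1. With 1 library left out, in HSC the ranges were -0.18 to 0.17 (Dnajc3), -0.09 to 0.07 (Eif2ak1), -0.07 to 0.25 (Eif2ak2) and -0.23 to 0.21 (Eif2ak4). In MPP3 they were -0.12 to 0.06 (Dnajc3), -0.05 to 0.08 (Eif2ak1), -0.10 to 0.17 (Eif2ak2) and -0.02 to 0.24 (Eif2ak4). For MPP3 against HSC they were -0.17 to 0.11 (Eif2ak2) and -0.18 to 0.23 (Eif2ak4) in controls and -0.22 to 0.09 (Eif2ak2) in mutants. For the difference they were -0.16 to 0.17 (Dnajc3), -0.05 to 0.11 (Eif2ak1), -0.25 to 0.12 (Eif2ak2), -0.05 to 0.37 (Eif2ak4), -0.14 to 0.03 (Eif2s2) and -0.68 to 1.56 (Ppp1r15a). The cause was not tested.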

Other observations

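Of 20 endoplasmic reticulum chaperone and unfolded protein response genes, the setting in which PERK acts, 2 rose and 2 fell in mutant HSC, beside 4.56% and 2.74% of all genes. The chaperone gene Calr rose by 0.50 ± 0.15 and Sdf2l1 by 0.69 ± 0.16 (edgeR adjusted p = 0.0476 and 0.0155). The 2 that fell were Xbp1, by 1.11 ± 0.21, and the IRE1 sensor gene Ern1, by 1.22 ± 0.33 in log2 units (edgeR adjusted p = 0.00461 and 0.0343). With 1 library left out, Xbp1 stayed called in 8 of 8 cases, Sdf2l1 in 7 of 8, Ern1 in 2 of 8 and Calr in 1 of 8. The Ern1 groups overlapped, its log2 ratios by batch were -2.69, -0.81, 0.21 and -0.96, and without batch 1 in every group it was -0.58 (edgeR adjusted p = 0.272). In mutant MPP3 against mutant HSC 3 rose, beside 3.69% of all genes. They were Calr (0.53 ± 0.15), Pdia4 (0.37 ± 0.09) and Edem1 (0.93 ± 0.21), with edgeR adjusted p of 0.03, 0.0135 and 0.00925. With 1 library left out these stayed called in 2, 5 and 8 of 8 cases.

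Of 22 interferon-induced genes, the class to which the PKR gene belongs, 5 fell in control MPP3 against control HSC, beside 6.91% of all genes. In mutant against control HSC edgeR called 0, beside 7.3% of all genes, 2 passed at an unadjusted p under 0.05, beside 21.7%, and DESeq2 called 1. Among the 5, Ifih1 fell by 0.89 ± 0.18 (edgeR adjusted p = 0.00316) and Ifit2 by 0.85 ± 0.18 (edgeR adjusted p = 0.00484).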
